A study of Mus musculus with 7 samples.

Results

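Sterol and fatty acid synthesis is described here through 31 genes in primary mouse dermal fibroblasts: the enzymes from acetyl-CoA to cholesterol, the sterol sensing proteins, sterol carriers and exporters, and enzymes of fatty acid synthesis and desaturation. The genes were taken by symbol from the RNA tables, where all 31 were listed among 23189 symbols. They filled 32 of the 23583 gene entries shared by both tables, and 30 of the 31 stood at 1 FPKM or more in at least 1 RNA library. FPKM counts sequenced fragments per kb of transcript, set relative to the size of the library by the authors.

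Cells make cholesterol from acetyl-CoA through mevalonate, farnesyl diphosphate, squalene and lanosterol. The pathway is governed at the membrane of the endoplasmic reticulum (ER): when sterol is low, SCAP escorts the SREBP factors to the Golgi, where proteases free their active part, and INSIG proteins hold SCAP back when sterol is plentiful. SREBP2 is known mainly for sterol genes and SREBP1 for fatty acid genes, and cultured fibroblasts were an early system for the study of this feedback.

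The study used dermal fibroblasts of female FVB/N mice after 8 days of culture in serum-containing medium. Cells were either left untreated or given thapsigargin for 3 h, a drug that blocks the calcium pump of the ER and thereby brings on ER stress and ATF4, a bZIP transcription factor of the stress response. Untreated cells gave 1 RNA library, 1 CEBPB chromatin immunoprecipitation and 2 bisulfite libraries, and treated cells gave 1 RNA library and 1 immunoprecipitation each of CEBPB and ATF4. The number of animals behind a library is not stated in the labels, both conditions share strain, sex and culture, and with 1 library per condition no difference between conditions has a replicate check.

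The confidence bounds of the RNA tables implied 53913511 fragments in the entries of the untreated and 78945813 in those of the treated library. Under thapsigargin the stress genes Hspa5 (354 to 4978 FPKM), Ddit3 (82.9 to 735), Atf4 (208 to 849) and Cebpb (33.4 to 210.7) were higher. The 10 fibroblast markers were all expressed and summed to 14760 FPKM untreated and 3026 FPKM treated. Col1a1, Col1a2 and Col3a1 held most of both sums, and Thy1 alone was higher, at 132 and 168 FPKM. Macrophage markers, 6 of 6 expressed, summed to 1020 and 1183 FPKM, of which Lyz2 held 880 and 951. Cd14 (14.8 to 111) and Csf1r (20.5 to 36.5) were also higher, and Cd68, Emr1 and Ptprc were lower. The 5 of 5 keratinocyte markers summed to 22.9 and 1.24, and endothelial markers, 1 of 4 expressed, to 5.44 and 1.76. Adipocyte and sebocyte markers, which would mark lipid-making cells of skin, had 1 of 7 expressed and summed to 13.4 and 1.58 FPKM, of which Fabp4 held 12.8 and 1.49, with Lep at 0 in both libraries. The part of these other cells in the members' values was not tested, and in bulk RNA fewer cells of a type and less RNA per cell cannot be told apart.

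The scale of the RNA comparison moves every member and is given first. Changes are given as log2(FPKM + 1) with thapsigargin minus the same without it, a scale that understates changes of low genes, and a size of at least 1 was called higher or lower. The median change was -0.52 over the 12207 entries that reached 1 FPKM in either library, called expressed here. One FPKM stood for 2.08 times as many fragments in the treated as in the untreated library (quartiles 2.07 and 2.09 over 9031 entries), whereas the fragments in all entries together were 1.46 times as many. Scaling to the fragments in the entries would add 0.50 to the log2 change of a well expressed gene. The change was also lower for transcripts with more exon junctions for their length (Spearman's rho -0.397 across 11999 entries, which share the 2 libraries and are not replicates). A junction-adjusted change is therefore given beside the change on the authors' scaling: the change minus the median of genes with a like number of junctions per kb. Intervals given with ratios are 95% intervals from the implied fragments and cover counting error only.

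Expression of the pathway was moderate in untreated fibroblasts, with a median of 13.9 FPKM over the 30 expressed members, beside 9.91 FPKM over all expressed entries. Npc2, which binds cholesterol in the lysosome, stood highest at 96.5 FPKM, clear of the next. Srebf2, which encodes SREBP2, and Acly, which makes cytosolic acetyl-CoA from citrate, followed at 41.7 and 40.3 FPKM with overlapping bounds. Scap at 30.2, Srebf1 at 28.4 and Sqle at 21.0 FPKM each stood clear of its lower neighbour. From Fasn at 16.1 down to Abca1 at 13.3 FPKM each member's bounds met those of the next, so their order is not resolved. Stard4 at 3.28 and Acaca at 3.27 FPKM were lowest and overlapped. In the treated library Npc2 was again highest at 102.8 FPKM, followed by Cyp51 at 52.7 and Mvd at 27.9, and then Fdps at 25.7 and Insig1 at 25.4 with overlapping bounds. Idi1 at 1.87, Abcg1 at 1.48 and Tm7sf2 at 1.22 FPKM were lowest there.

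**Figure D1:**
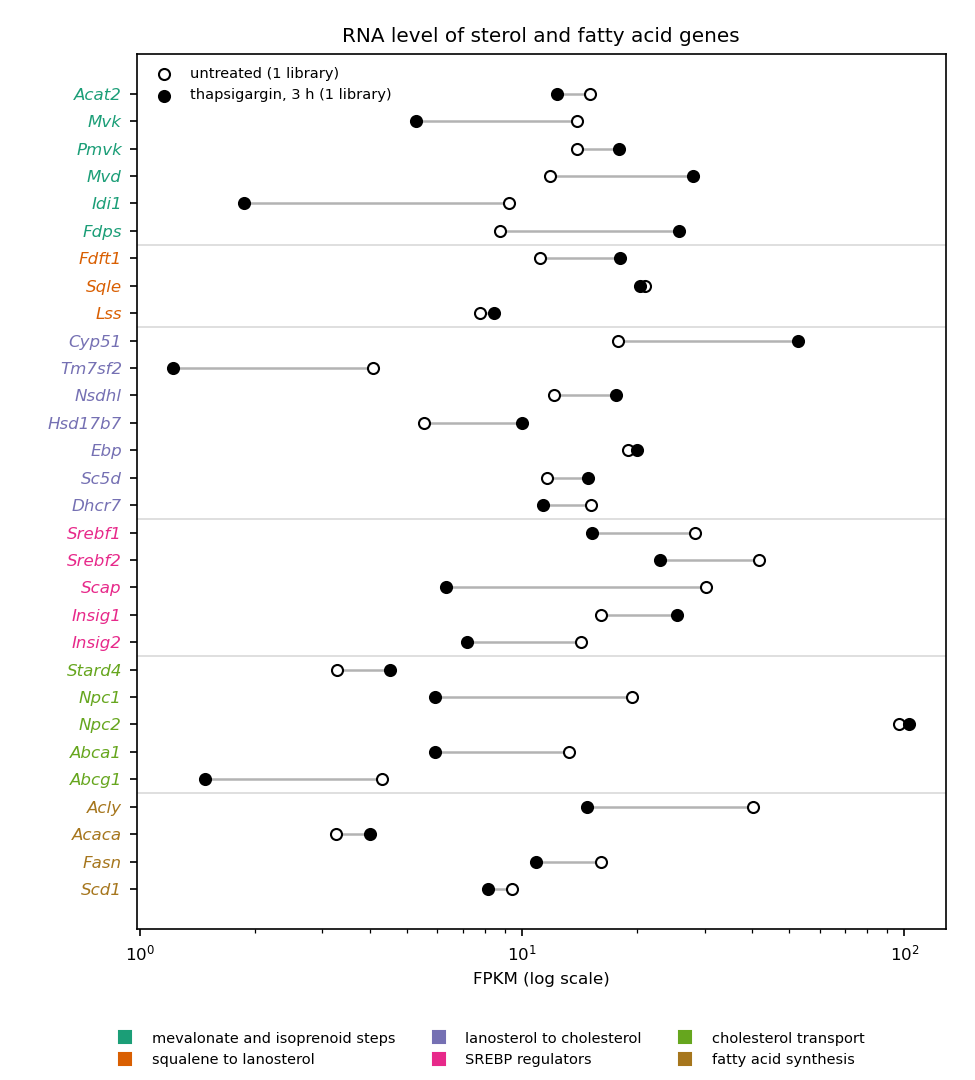
RNA level in FPKM (log axis) of the 30 expressed members in the untreated library (open circles) and the library of thapsigargin for 3 h (filled circles), 1 library each, grouped by role. Cyp51, Mvd and Fdps lie to the right of their untreated value by 2.36-fold or more, and Idi1 and Scap lie to the left of theirs by 4.77-fold or more.

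After thapsigargin 3 members were higher, Cyp51, Fdps and Mvd, and 8 were lower, Scap, Idi1, Npc1, Acly, Mvk, Tm7sf2, Abcg1 and Abca1. The other 19 lay within 2-fold. The 3 higher members were 10.0% of 30 beside 6.02% of all expressed entries, and the 8 lower ones 26.7% beside 28.2%, so both shares were near those of all genes. The median change of the members was -0.12 (range -2.09 to 1.51), and 18 of 30 lay above the median of all expressed entries. After junction adjustment the median was 0.17, with 6 of 30 higher (beside 12.3% of 11999 entries) and 2 lower (6.67% beside 10.2%), so the split of calls turned from 3 higher and 8 lower to 6 higher and 2 lower. Centred on the 6551 entries that reached 5 FPKM in each library, 6 of 30 members were higher (beside 11.0% of entries) and 3 lower (10.0% beside 15.8%). Centred on all expressed entries, 7 were higher (23.3% beside 13.3%) and 3 lower (10.0% beside 12.9%). Scaled to the fragments in the entries, 6 were higher (beside 12.0%) and 3 lower (10.0% beside 16.2%).

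Across these 5 scalings Cyp51, Fdps and Mvd were higher under each, and Idi1 and Scap were lower under each. Both centrings and the scaling to fragments raise the change of every expressed member. A member higher on the authors' scaling therefore stays higher under them, and only the junction adjustment could alter that call. Fdft1, Hsd17b7, Insig1, Nsdhl, Pmvk and Acaca passed the threshold as higher under at least 1 scaling, and Npc1, Acly, Mvk, Tm7sf2, Abcg1 and Abca1 as lower under at least 1. The remaining 13 passed under none. The sign of the change was positive under all 5 scalings for 14 members, negative for 10 and mixed for 6, which were Acat2, Dhcr7, Fasn, Mvk, Scd1 and Sqle. The counts across scalings were not taken over all expressed entries, so they describe the members and are not set against other genes.

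**Figure D2:**
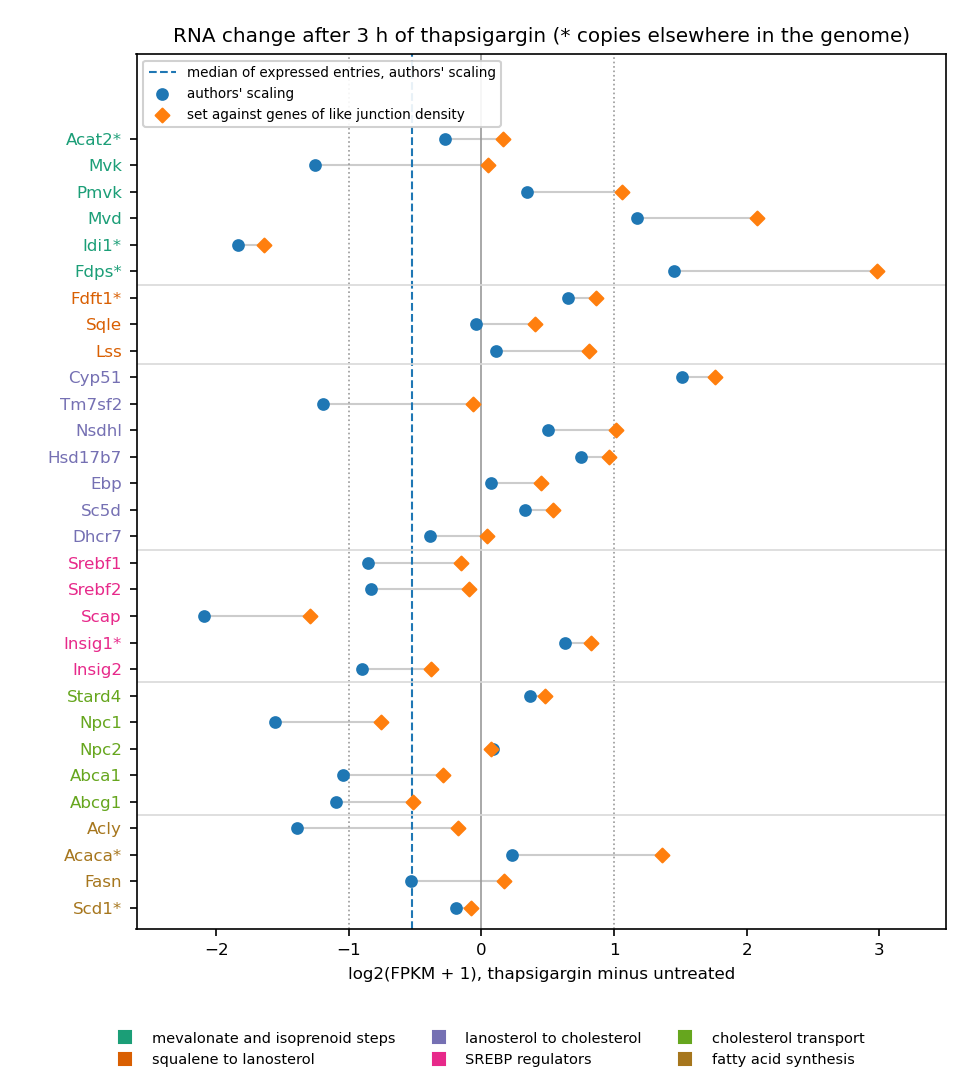
Change of each expressed member in log2(FPKM + 1), thapsigargin minus untreated, on the authors' scaling (blue circles) and set against genes of like junction density (orange diamonds), with dotted lines at the threshold of 1 and a dashed line at the median of all expressed entries, -0.52. Cyp51, Fdps and Mvd lie above 1 on both, Idi1 and Scap below -1 on both, and an asterisk marks genes with copies elsewhere in the genome.

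The mevalonate and isoprenoid steps moved in both directions, with 2 of 6 expressed members higher, 2 lower (beside 6.02% and 28.2% of expressed entries, as for each role) and a median change of 0.03. Mvd (chr8:124957496-124967322, mm9 throughout), the decarboxylase that makes isopentenyl diphosphate, stood at 11.8 FPKM untreated and 27.9 treated, a ratio of 2.36 (2.22 to 2.51) and a change of 1.17, or 2.07 after adjustment. Fdps (chr3:88897510-88905889), which joins isoprene units into farnesyl diphosphate, stood at 8.77 and 25.7 FPKM, a ratio of 2.93 (2.66 to 3.24) and a change of 1.45, or 2.98 after adjustment. The enzyme between them went the other way. Idi1 (chr13:8884852-8891642), which interconverts the isomers of isopentenyl diphosphate, stood at 9.22 FPKM untreated and 1.87 treated, 4.93 times lower (4.52 to 5.38), with a change of -1.83, or -1.64 after adjustment.

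The early steps differed from each other as well. Mvk (chr5:114894315-114910599), the kinase that acts on mevalonate, stood at 13.9 FPKM untreated and 5.27 treated, 2.64 times lower (2.45 to 2.86), with a change of -1.25. Mvk has 6.67 junctions per kb, and beside genes of like structure its change was 0.05. Pmvk, the next kinase, stood at 13.9 and 17.9 FPKM, a change of 0.34 and an adjusted change of 1.06. Acat2, the cytosolic thiolase that condenses acetyl-CoA, stood at 15.1 and 12.3 FPKM, a change of -0.27 and an adjusted change of 0.16. Hmgcs1, the synthase of the step before mevalonate, was listed only as 2 entries on the unplaced part of chromosome 13 and at 0 in both libraries, so no value of it is used.

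The steps from farnesyl diphosphate to lanosterol lay within 2-fold on the authors' scaling, with a median change of 0.11 over 3 members. Fdft1, squalene synthase, stood at 11.1 FPKM untreated and 18.1 treated, a change of 0.65 and an adjusted change of 0.86. Sqle, squalene epoxidase, stood at 21.0 and 20.4 FPKM, a change of -0.04 (adjusted 0.40). Lss, which closes the rings to lanosterol, stood at 7.76 and 8.47 FPKM, a change of 0.11 (adjusted 0.81). Each of the 3 was above the median of all expressed entries.

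Among the steps from lanosterol to cholesterol, 1 of 7 members was higher and 1 lower, with a median change of 0.33. Cyp51 (chr5:4080674-4104697), the lanosterol demethylase, was higher by a ratio whose interval overlaps that of Fdps: 17.9 FPKM untreated and 52.7 treated, a ratio of 2.95 (2.86 to 3.04), a change of 1.51 and an adjusted change of 1.76. Its change lay at the 97.1 percentile of expressed entries. Tm7sf2 (chr19:6062821-6067850), a sterol reductase, stood at 4.08 and 1.22 FPKM, 3.34 times lower (2.83 to 3.94), with a change of -1.19. After adjustment the Tm7sf2 change was -0.06. Both enzymes act next to each other on the route from lanosterol.

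The other enzymes of that branch lay within 2-fold on the authors' scaling. Nsdhl and Hsd17b7, which take part in removing methyl groups from the sterol, stood at 12.1 and 17.6 FPKM (0.50, adjusted 1.01) and at 5.55 and 10.0 FPKM (0.75, adjusted 0.96), untreated and treated. Ebp, the sterol isomerase, stood at 18.9 and 19.96 FPKM, a change of 0.07 (adjusted 0.45), and Sc5d, the sterol desaturase, at 11.6 and 14.9 FPKM, a change of 0.33 (adjusted 0.54). Dhcr7, a reductase of the last steps, stood at 15.2 and 11.4 FPKM, a change of -0.39 (adjusted 0.04). Over the 16 expressed enzymes from Acat2 to Dhcr7 together, 3 were higher and 3 lower on the authors' scaling (beside 6.02% and 28.2% of expressed entries), with a median change of 0.22. After adjustment 5 were higher and 1 lower (beside 12.3% and 10.2%), with a median of 0.68 and 14 of 16 above 0, where 6143 of 11999 entries were above 0.

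Of the 5 regulators none was higher and Scap was lower, with a median change of -0.85. Scap (chr9:110235797-110287450), the escort of the SREBP factors, stood at 30.2 FPKM untreated and 6.33 treated, 4.77 times lower (4.58 to 4.97), with a change of -2.09, or -1.29 after adjustment. The factors themselves lay within 2-fold: Srebf1 stood at 28.4 and 15.3 FPKM (-0.85, adjusted -0.15) and Srebf2 at 41.7 and 22.9 FPKM (-0.84, adjusted -0.10). The retention proteins lay on opposite sides of 0. Insig1, itself a known SREBP target, stood at 16.1 and 25.4 FPKM, a change of 0.63 (adjusted 0.82), and Insig2 at 14.3 and 7.18 FPKM, a change of -0.90 (adjusted -0.38).

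Of the 5 genes of sterol transport, 3 were lower (beside 28.2% of expressed entries) and none higher, with a median change of -1.05. Npc1 (chr18:12348203-12394895), which exports cholesterol from the lysosome, stood at 19.4 FPKM untreated and 5.93 treated, 3.27 times lower (3.15 to 3.40), with a change of -1.56 (adjusted -0.76). Its partner Npc2 did not share this and stood at 96.5 and 102.8 FPKM, a change of 0.09 (adjusted 0.07). The exporters of the plasma membrane, both known targets of the oxysterol receptors, were lower. Abca1 (chr4:53043661-53172767) stood at 13.3 and 5.91 FPKM, 2.25 times lower (2.18 to 2.31), a change of -1.05 (adjusted -0.29). Abcg1 (chr17:31194639-31254926) stood at 4.30 and 1.48 FPKM, 2.90 times lower (2.69 to 3.12), a change of -1.09 (adjusted -0.52). Stard4, a soluble sterol carrier, stood at 3.28 and 4.52 FPKM, a change of 0.37 (adjusted 0.48). After adjustment none of the 5 passed the threshold.

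Of the 4 fatty acid genes 1 was lower and none higher, with a median change of -0.36. Acly (chr11:100337666-100389314) stood at 40.3 FPKM untreated and 14.7 treated, 2.73 times lower (2.65 to 2.82), a change of -1.39, and with 6.63 junctions per kb its adjusted change was -0.18. Acaca, acetyl-CoA carboxylase, stood at 3.27 and 4.0 FPKM, a change of 0.23 and an adjusted change of 1.36. Fasn, fatty acid synthase, stood at 16.1 and 10.8 FPKM (-0.53, adjusted 0.17), and Scd1, the stearoyl-CoA desaturase, at 9.43 and 8.13 FPKM (-0.19, adjusted -0.08). The 3 enzymes that act after Acly thus lay within 2-fold on the authors' scaling.

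Several members have near-identical copies elsewhere in the genome, so the way the reads were assigned can bear on their values. Counting 100-bp windows of each transcript that recur elsewhere with at most 3 mismatches, Fdps had 95.7% of its windows copied, Idi1 82.1%, Acaca 80.4%, Insig1 64.7%, Fdft1 42.9%, Acat2 27.3% and Scd1 4.21%. The other 23 expressed members had no copied window. The copies of Fdps on chromosome 10, of Idi1 on chromosome 2 and of Acaca on chromosome 12 run across exon junctions without a break, 8 of 9, 3 of 4 and 44 of 55 junctions, as processed copies do. The copies of Fdft1 on chromosome 14 and of Insig1 on chromosome 3 do so at 5 of 7 and 2 of 4 junctions. The copies of Acat2 lie on chromosome 17 beside the gene and span no junction in this way, and those of Scd1 lie in the neighbouring part of chromosome 19 that holds Scd2.

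The values of Fdps, Idi1, Acaca, Insig1 and Fdft1 are uncertain for this reason, and so are the changes after adjustment, which place a gene by its junctions per kb. Over all 586 expressed entries with 50% or more of their windows copied, the median change was -0.47, with 36 higher and 202 lower (beside 6.02% and 28.2% of all expressed entries). The 23 members without copied windows had a median change of -0.39 and an adjusted median of 0.07, with 2 higher, Cyp51 and Mvd, and 7 lower. Of the 9181 expressed entries without copied windows 560 were higher and 2647 lower, with a median change of -0.55. Some exons are also shared with other genes: 26.9% of the exonic bases of Fdft1 lie in exons of Ctsb, 18.9% of Scap in 5830462I19Rik and 15.3% of Tm7sf2 in 1110014N23Rik. The sources used here do not say that reads were counted by strand, so such reads cannot be told apart.

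Other genes of sterol and fatty acid metabolism, 45 in a list chosen by pathway role, of which 40 were expressed, gave 2 higher, 11 lower (beside 6.02% and 28.2% of expressed entries) and a median change of -0.33. After junction adjustment 5 were higher and 4 lower (beside 12.3% and 10.2%), with a median of 0.23. Ch25h, which makes an oxysterol from cholesterol, was highest, at 24.0 FPKM untreated and 152.0 treated, a change of 2.62 (adjusted 2.47), and Me1, the malic enzyme that supplies NADPH, stood at 6.82 and 14.8 FPKM, a change of 1.02, with 56.3% of its windows copied. The lowest were Fads2, a fatty acid desaturase, at 21.2 and 2.19 FPKM (-2.80, adjusted -1.27), Tecr, a reductase of fatty acid elongation, at 98.1 and 14.8 FPKM (-2.65, but within the threshold after adjustment, at -0.75), and Mbtps1, the protease that makes the first cut in SREBP, at 63.3 and 13.9 FPKM (-2.11, adjusted -1.53). Mbtps1 and Scap, which act one after the other in SREBP activation, were thus both lower on the authors' scaling and after adjustment.

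Peaks of the 3 deposited lists were placed by any base within 10 kb of a member's locus. CEBPB peaks of untreated cells, 7317 in all, lay near 7 of 30 members (23.3%, beside 24.2% of all expressed entries): Abca1, Abcg1, Fdft1, Hsd17b7, Npc2, Scap and Scd1. CEBPB peaks of treated cells, 7861 in all, lay near 6 of 30 (beside 22.5%): Abcg1, Acaca, Acat2, Cyp51, Fdft1 and Srebf1. ATF4 peaks of treated cells, 10109 in all, lay near 18 (60.0%, beside 61.5%). Within 1 kb of the start the counts were 1 member for CEBPB untreated (beside 4.88%), 2 for CEBPB treated (beside 3.89%) and 12 for ATF4 (40.0%, beside 47.7%). All these shares are near those of all expressed entries. Scores are the authors' own, on a different scale in each list, and only rank peaks within a list.

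**Figure D3:**
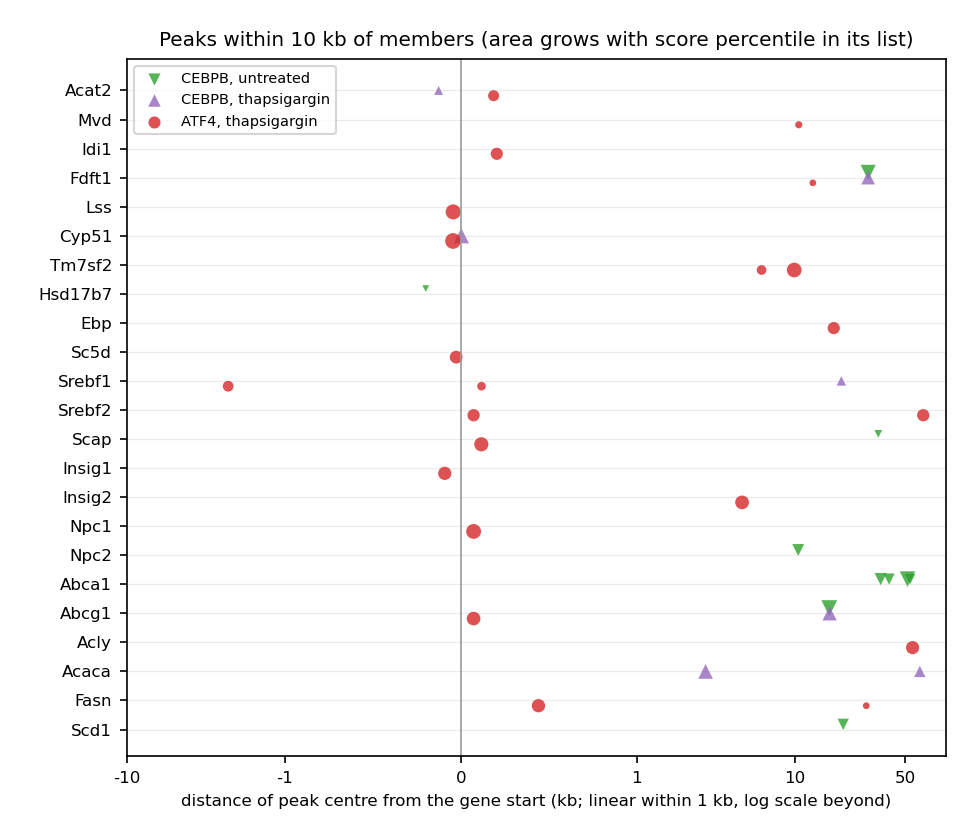
Distance of each peak centre from the start of the member it lies near (kb, linear within 1 kb of the start and logarithmic beyond), with symbol area growing with the peak's score percentile in its list, for members with a peak within 10 kb of the locus. Red circles are ATF4 peaks, purple triangles CEBPB peaks of treated cells and green triangles CEBPB peaks of untreated cells. Of the 18 members with an ATF4 peak 12 have one within 1 kb of the start. Cyp51 and Acat2 have a CEBPB peak of treated cells there as well, and the peaks overlap at Cyp51 only.

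Cyp51 was the only member with overlapping CEBPB and ATF4 peaks. The share of all expressed entries with such an overlap was not taken, so its rarity among genes is not known here. Acat2, with a change of -0.27, also had a CEBPB peak of treated cells and an ATF4 peak within 1 kb of the start, without overlap. The ATF4 peak of Cyp51 (chr5:4104568-4104914) covered the start with a score of 18.97, rank 219 of 10109, the highest of any member. The CEBPB peak of treated cells (chr5:4104604-4104784) lay inside it with a score of 15.29, rank 691 of 7861, and no CEBPB peak of untreated cells lay within 10 kb. The CpG cytosines under the ATF4 peak were 0.206% methylated in untreated cells, against a median of 0.172% over ATF4 peaks and 60.2% over CEBPB peaks of treated cells. The sequence of the ATF4 peak upstream of the annotated transcript, shown because this gene was higher and had the highest ranking ATF4 peak of any member, reads as follows on the plus strand of mm9, which is opposite to the gene, with the match to TGNTGCAA in capitals (reverse strand, TGGTGCAA on the gene's strand).
Cyp51 start, chr5:4104747-4104914: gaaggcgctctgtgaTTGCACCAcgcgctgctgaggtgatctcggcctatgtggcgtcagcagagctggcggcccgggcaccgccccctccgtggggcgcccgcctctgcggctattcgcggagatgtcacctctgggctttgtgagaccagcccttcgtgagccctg

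The sequences here are those of the mm9 reference genome, and the cells were of another strain, FVB/N. The match TGNTGCAA, which covers the composite element TGATGCAA known to be bound by pairs of a CEBP and an ATF protein, occurred in 12.9% of CEBPB peaks of treated cells and 2.34% of ATF4 peaks. This looser form was added after the first results were seen, and the Cyp51 match, TGGTGCAA, is not the composite element itself. Both strands were searched for each motif.

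Among the CEBPB peaks of untreated cells near members, that of Abcg1 had the highest score. Its intronic peak of untreated cells (chr17:31210851-31211456), 16515 bp into the gene, had a score of 574.0, rank 39 of 7317, and 5.61% methylation over 18 cytosines. In treated cells a peak at the same place (chr17:31211157-31211318) had rank 1780 of 7861. Fdft1 also had overlapping CEBPB peaks in both states in an intron (chr14:63767294-63767765 untreated, rank 666, and chr14:63767429-63767653 treated, rank 2384), in a stretch without CpG cytosines, though the nearest gene start there is that of Ctsb. These 2 peaks, the CEBPB peaks seen in both states, are shown for treated cells on the plus strand, with matches to TTGCNNAA, the core of the CEBP site, and to TCACNCCAC, the sterol regulatory element bound by SREBP, in capitals.
Abcg1 intron, chr17:31211157-31211318: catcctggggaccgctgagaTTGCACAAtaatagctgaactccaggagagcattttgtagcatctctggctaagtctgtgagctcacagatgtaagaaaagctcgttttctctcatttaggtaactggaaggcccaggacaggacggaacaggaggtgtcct
Fdft1 intron, chr14:63767429-63767653: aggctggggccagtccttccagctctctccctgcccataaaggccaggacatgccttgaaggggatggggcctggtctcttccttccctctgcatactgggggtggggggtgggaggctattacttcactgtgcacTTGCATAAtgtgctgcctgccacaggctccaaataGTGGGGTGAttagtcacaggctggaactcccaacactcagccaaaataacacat

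In the Abcg1 peak the match is TTGCACAA, and in the Fdft1 peak the matches are TTGCATAA and, on the reverse strand, the sterol element. TTGCNNAA occurred in 68.1% of CEBPB peaks of untreated cells and 20.2% of those of treated cells, and TCACNCCAC in 1.78% and 1.26%. The lists differ in peak width, with a median of 464.0 bp untreated and 172.0 bp treated, and CCAAT was in 50.6% and 20.2%, so these shares are not compared between the lists. A match describes the letters and does not show which factor was bound.

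Abca1 had 4 CEBPB peaks in untreated cells, all intronic and 34905 to 53589 bp from the start, and none in treated cells. The highest (chr4:53120919-53121452) had a score of 285.45, rank 390, and the 4 were 36.3% to 60.5% methylated, around the median of 39.0% for CEBPB peaks of untreated cells. Npc2 had an intronic peak of rank 3678, Scd1 a downstream one of rank 4226 and Scap an intronic one of rank 6501. The Hsd17b7 peak, rank 6975, covered the start, which lies head to head with 3110045C21Rik, whose start was 5 bp from the peak's centre.

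CEBPB peaks of treated cells without one in untreated cells lay at Cyp51, Acaca, Acat2 and Srebf1. The share of all CEBPB peaks that overlap between the states was not taken. Presence in only 1 state, here and at Abca1, is therefore not read as particular to these genes. Acaca had 2, of which the higher (chr11:84011569-84011773, rank 1353) lay in an intron 2731 bp into the listed locus, without CpG cytosines, and held TGATGCAA beside a TTGCNNAA match. Srebf1 had 1 of rank 5936 in an exon 19694 bp from the start (chr11:60014329-60014495), which also held TGATGCAA, on the reverse strand. The Acat2 peak, of rank 6225, lay 126 bp upstream, and an ATF4 peak (chr17:13153250-13153558, rank 6036) lay on the other side of the start. TGATGCAA occurred in 7.58% of CEBPB peaks of treated cells, and the Acaca peak and the part of the Srebf1 peak that hold it are printed to show its setting, on the plus strand, with the matches in capitals.
Acaca intron, chr11:84011569-84011773: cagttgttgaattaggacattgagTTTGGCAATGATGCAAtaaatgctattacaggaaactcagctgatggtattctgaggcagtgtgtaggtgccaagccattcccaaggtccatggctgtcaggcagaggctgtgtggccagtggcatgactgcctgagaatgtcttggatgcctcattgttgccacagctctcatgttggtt
Srebf1 exon, chr11:60014458-60014487: ctgactccaggTTGCATCActgaagcactg

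After Cyp51, the ATF4 peaks with the highest scores near a member were those of Lss (chr10:75994164-75994493, rank 1113), Npc1 (rank 1446), Tm7sf2 (chr19:6057755-6058101, rank 1591), Scap (chr9:110235756-110236072, rank 2326) and Insig2 (chr1:123224276-123224749, rank 2954). Those of Lss, Npc1 and Scap lay at the start. The Tm7sf2 peak lay 40 bp from the start of Fau and 9922 bp from that of Tm7sf2, and peaks near Acly, Mvd and Ebp likewise lay nearest the starts of Klhl11, Cyba and Tbc1d25. Insig2's peak lay 4644 bp inside the listed locus, where the annotation has further coding starts. Members with an ATF4 peak within 1 kb of the start had a median change of -0.68 (12 members, 1 higher and 4 lower) and those without one 0.08 (18 members, 2 higher and 4 lower). Over all expressed entries the medians were -0.46 with such a peak (5720 entries, 303 higher and 1461 lower) and -0.58 without one (6279 entries, 408 higher and 1925 lower). After adjustment the medians with and without a peak were 0.03 and 0.42 for members, and 0.05 and -0.002 for all expressed entries. Insig2 and Acaca count as without one, though other annotated coding starts of theirs have an ATF4 peak within 1 kb.

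Some ATF4 peaks held other elements, and these were chosen for display after their letters were seen. The Idi1 peak (chr13:8884959-8885155, rank 4836) held TGACGTCA, the cAMP response element, which occurred in 1.88% of ATF4 peaks. The upstream Srebf1 peak at 2285 bp before the start (chr11:60036293-60036489, rank 6288) held the sterol element TCACNCCAC, which occurred in 0.901% of ATF4 peaks, together with CCAAT. They are printed on the plus strand, with the matches in capitals and the Idi1 stretch limited to a part of the peak.
Idi1 exon, chr13:8885055-8885084: tggcgcggccgTGACGTCAggcttgtgcta
Srebf1 upstream, chr11:60036293-60036489: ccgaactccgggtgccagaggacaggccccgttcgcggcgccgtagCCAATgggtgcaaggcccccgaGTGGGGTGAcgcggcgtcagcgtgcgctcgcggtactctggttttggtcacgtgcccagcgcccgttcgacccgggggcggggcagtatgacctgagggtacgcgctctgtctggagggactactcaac

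The sterol element match of Srebf1 lies on the reverse strand of the printed run, and a CCAAT match precedes it. CCAAT is the box bound by NF-Y, a factor known to act together with SREBP at sterol genes.

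Promoters were taken as 250 bases before to 50 after the locus start. Some members, among them Acaca, Insig2, Dhcr7 and Fasn, have annotated coding starts outside this window, and no promoter was taken at those. CCAAT, on either strand, occurred in 22 of 30 members' promoters (73.3%), and in 37.8% of 11999 promoters of expressed entries. It was present in 13 of the 16 sterol enzymes, 3 of 5 regulators, 3 of 5 transport genes and 3 of 4 fatty acid genes. Acat2, Pmvk, Dhcr7, Scap, Srebf1, Abca1, Npc1 and Acaca had none. Mvk had 5 matches and Nsdhl 4. The members with a match had a median change of 0.08 and those without -0.62, and the same medians were not taken over all expressed entries. Medians by role rest on few genes, so no direction by role is read from them. With and without a match, they were -0.04 (4 genes) and 0.035 (Acat2 and Pmvk) for mevalonate steps. For fatty acid genes they were -0.532 (3 genes) and 0.227 (Acaca alone). From lanosterol to cholesterol they were 0.414 (6 genes) and -0.389 (Dhcr7 alone). They were -0.835 (3 genes) and -1.471 (Scap and Srebf1) for regulators, and 0.089 (3 genes) and -1.303 (Abca1 and Npc1) for transport. A link of CCAAT to the change was not tested. Of the 8 members lower on the authors' scaling 5, Idi1, Mvk, Acly, Tm7sf2 and Abcg1, had a match.

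The upstream regions of 2 mevalonate enzymes are shown to compare Mvk, the member with the most matches, with Mvd, which was higher. Each is written on the gene's strand, 5′ to 3′, up to the base before the locus start or the annotated transcript, with CCAAT and its reverse ATTGG in capitals.
Mvk, chr5:114894069-114894288, plus strand: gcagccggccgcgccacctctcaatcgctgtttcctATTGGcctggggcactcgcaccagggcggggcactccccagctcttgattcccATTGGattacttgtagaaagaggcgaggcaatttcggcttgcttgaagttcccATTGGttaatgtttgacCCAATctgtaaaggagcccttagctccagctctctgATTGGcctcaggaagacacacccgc
Mvd, chr8:124967323-124967572, minus strand: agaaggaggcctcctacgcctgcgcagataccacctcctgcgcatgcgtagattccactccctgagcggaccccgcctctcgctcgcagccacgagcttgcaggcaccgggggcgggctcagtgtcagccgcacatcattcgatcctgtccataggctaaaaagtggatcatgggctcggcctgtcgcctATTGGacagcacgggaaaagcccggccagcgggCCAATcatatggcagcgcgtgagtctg

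Mvk has 4 reverse matches and 1 forward match in this run, and Mvd has 1 of each. Mvd was higher under all 5 scalings, whereas Mvk was lower on the authors' scaling only and changed by 0.0514 after junction adjustment. The 2 genes were chosen with these values known, and a link of the matches to the change was not tested.

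Of the other motifs, TTGCNNAA occurred in 4 (13.3%, Dhcr7, Npc2, Nsdhl and Stard4) beside 7.54% of expressed entries, and TGACG, the core of the ATF and CREB sites, in 10 (33.3%) beside 32.2%. TGACGTCA occurred in 1, Pmvk (3.33%, beside 3.43%), TCACNCCA in 1, Srebf2 (3.33%, beside 3.48%), and TGNTGCAA in 2, Cyp51 and Insig2 (6.67%, beside 2.55%). The longer TCACNCCAC was in none of the 30 windows, beside 1.03% of expressed entries, which does not cover coding starts away from the locus start. The annotated coding start of Fasn lies 369 bp inside the locus. The ATF4 peak over that start held a TCACNCCAC match, outside the window. TGATGCAA, CGATGCAA and TTGCGCAA were in none of the 30 windows, beside 0.542%, 0.0917% and 0.275%. The motifs TGACG, TCACNCCA and TGNTGCAA were added after the first results were seen, so their shares are a description only. They overlap the longer or stricter ones, TGACG with TGACGTCA, TCACNCCA with TCACNCCAC and TGNTGCAA with TGATGCAA. The TGNTGCAA match of Insig2 lies at its listed start, which was 73.6% methylated.

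In untreated cells most members had little CpG methylation at the start and much at the end. Within 1 kb of the locus start CpG methylation had a median of 4.66% over 30 members (5.49% over expressed entries), and 26 of 30 were under 20% (86.7%, beside 83.0%). Within 1 kb of the locus end the median was 77.9% (79.8% over expressed entries), from 32.7% at Tm7sf2 to 91.3% at Idi1. The lowest starts were Npc1 at 0.228%, Fasn at 0.314% and Npc2 at 0.842%. The starts of Mvd at 3.00%, Cyp51 at 2.49% and Fdps at 5.63%, the members that were higher, and of Scap at 6.46% and Idi1 at 5.32%, which were lower, lay in the same low range. Methylation was measured in untreated cells only, as the authors' pooled percent of 2 bisulfite libraries without read depth, so no interval is given.

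**Figure D4:**
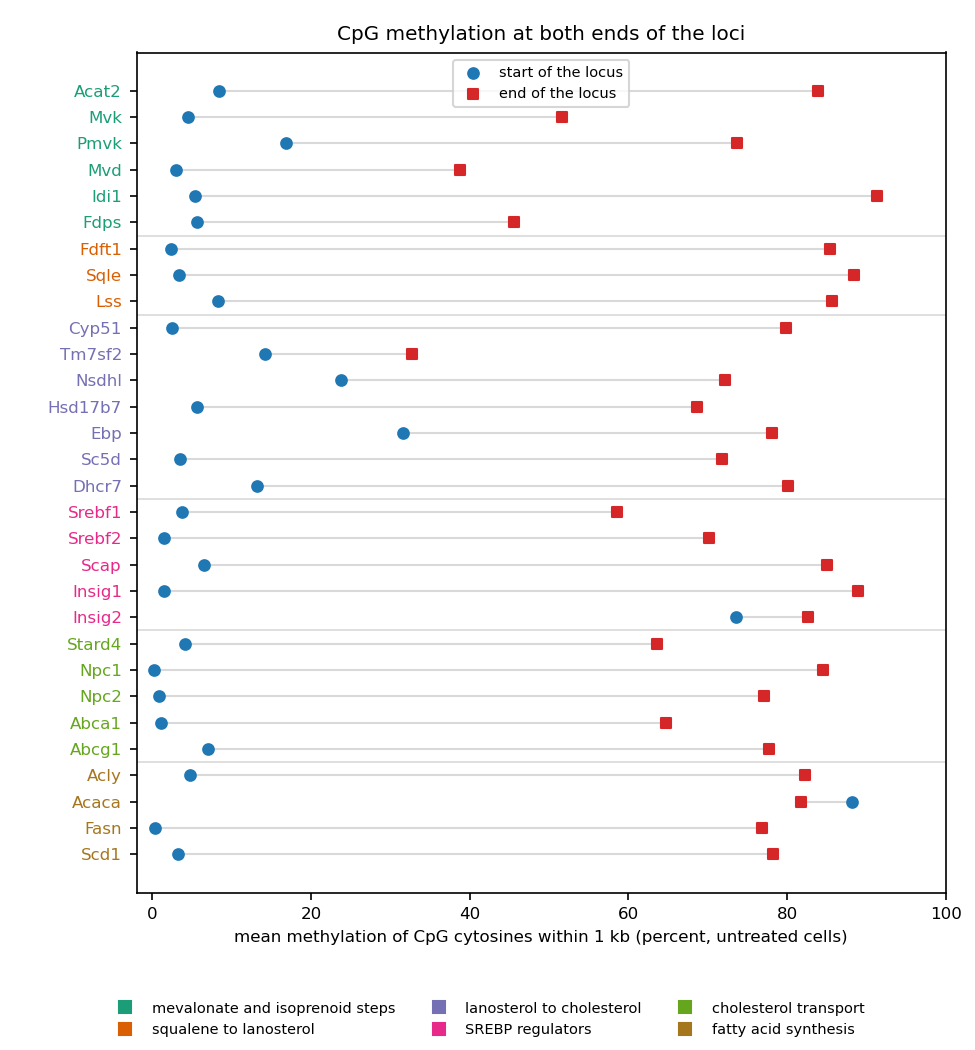
Mean CpG methylation (percent, untreated cells, the authors' pooled values) within 1 kb of the locus start (blue circles) and of the locus end (red squares) of the 30 expressed members. Starts lie under 20% except Acaca, Insig2, Ebp and Nsdhl, and ends lie between 32.7% and 91.3%.

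The 4 starts at or above 20% fell into 2 kinds. Ebp at 31.6% and Nsdhl at 23.8% lie on the X chromosome, where the 404 expressed entries had a median start of 26.8% in these female cells. At Acaca (88.2%) and Insig2 (73.6%) the start of the RNA entry is not the only annotated start. Acaca has coding starts upstream on chromosome 11 at positions 83993375 and 83943174, with 0.62% and 4.0% methylation and each with an ATF4 peak within 1 kb. Insig2 has a cluster of coding starts about its ATF4 peak, 4902 bp inside the entry, with 2.37% methylation. Dhcr7, with 13.2% at its listed start, has further coding starts 6459 to 7071 bp inside at 3.43% to 4.97%. Taken at the least methylated annotated coding start of each gene, the members' median was 3.58%.

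Tm7sf2 at 32.7%, Mvd at 38.8%, Fdps at 45.6% and Mvk at 51.6% had the 4 least methylated ends among members, with Tm7sf2 at the 5.44 percentile of expressed entries and Mvk at the 9.13 percentile. At Mvd the window at the end takes in an ATF4 peak near the start of Cyba (chr8:124956550-124956898, 0.554% methylated), and at Tm7sf2 it takes in only the edge of such a peak near the start of Znhit2-ps (chr19:6061481-6061881).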

How the data were processed

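RNA, CEBPB and ATF4 chromatin and bisulfite-treated DNA of dermal fibroblasts were sequenced. Per the submitters' processing notes, CASAVA 1.8.2 and Bowtie were used for RNA, CASAVA 1.7, BWA and SAMtools for chromatin, CASAVA 1.8 and Novoalign for bisulfite reads, and the build was mm9. The authors deposited FPKM values with confidence bounds and a status per gene entry, by a program that no source here names. The deposited peak lists carry a score per peak, of which no source here gives the definition or the caller. The authors deposited 1 percent of methylation per cytosine, pooled over 2 libraries and without read depth.

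From these, changes on the log2(FPKM + 1) scale were computed for entries at 1 FPKM or more in either library, with a pseudocount of 1. Implied fragments were taken from the confidence bounds as the squared ratio of 2 FPKM to the distance between value and bound. The junction-adjusted change subtracts the median of genes at 5 FPKM or more in 50 bins of junctions per kb. Annotation was GENCODE for the mm9 assembly, to which 92.2% of shared entries matched. Copied windows (100 bp, every 50 bp) were found with minimap2 2.31-r1302. Python 3.11.15, numpy 2.4.6, pandas 2.3.3, scipy 1.17.1 and pysam 0.24.0 were used, and the procedure was tested on simulated data. Single cytosines marked as heterozygous (83035) were left out.

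Members and lists were chosen with earlier results of these data known. All members were named, up to 3 called genes of the related list with the largest change in each direction, and the highest scoring peak of up to 6 members per peak list, with further peaks chosen after their values were seen. Depth limits precision to the counting intervals given, and with 1 library a condition no test between conditions was made. Some promoter and peak sequences are not reported here.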

Additional observations from a re-analysis of the deposited data

How the results depend on the processing

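The number of members higher after thapsigargin, 3 on the authors' scaling, was 6 centred on entries that reached 5 FPKM in each library, 6 after junction adjustment and 6 at a fold of 1.5. Among alternatives chosen after seeing the data it was 7 centred on all expressed entries and 6 scaled to the fragments in all entries. The number lower, 8, became 3, 2, 3 and 3 for these centrings and scalings in the same order, and 11 at a fold of 1.5, where 11.4% of expressed entries were higher and 47.0% lower. The members' median change of -0.12 was -0.127 with a pseudocount of 0.1, -0.02 with no minimum, -0.389 without genes with copies, 0.279 centred on entries at 5 FPKM, 0.166 after junction adjustment, and, chosen after seeing the data, 0.404 centred on all expressed entries and 0.354 scaled to fragments. Related genes gave 5 higher and 4 lower after junction adjustment, with a median of 0.232, and a median of -0.334 with a pseudocount of 0.1. The change of Mvk turned from -1.25 to 0.0514 after junction adjustment, the only single member whose called direction turned. Cyp51, Fdps, Mvd, Idi1 and Scap passed the threshold in the same direction under all 5 scalings. For Cyp51, Fdps and Mvd this was fixed in advance under both centrings and the scaling to fragments, which only raise changes.

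Members near a CEBPB peak of untreated cells, 7, were 3 with the higher-scoring part of the list (beside 14.6% of expressed entries) and 11 within 50 kb (beside 44.1%). The median start methylation, 4.66%, was 0.476% within 0.5 kb, 17.1% within 2 kb and 3.58% at the least methylated coding start (chosen after seeing the data). The median at the ends, 77.9%, was 77.0% within 0.5 kb, 78.3% within 2 kb and 79.0% over CpGs with values on both strands. No paired analysis was possible because each RNA and chromatin condition has 1 library and the bisulfite libraries were deposited pooled. The depth of the bisulfite values is not known here, and the confidence bounds of the RNA values hold no spread between cultures.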
